A study of Mus musculus with 4 samples.

Results

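Sodium, chloride and bicarbonate cross the intestinal epithelium through a small set of transport proteins, and 8 genes of this set were examined among the 20791 genes that have exon blocks in the deposited exon table. The genes were taken by name: the sodium-proton exchangers Slc9a2 and Slc9a3, the anion exchangers Slc26a2, Slc26a3 and Slc26a6, the scaffold protein gene Slc9a3r1, the sodium-bicarbonate cotransporter Slc4a4 and the sodium-potassium-chloride cotransporter Slc12a2. The last 3 are thus not exchangers themselves. No exon block of the 8 genes was shared with another gene.

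In the epithelium, apical sodium-proton exchange coupled to chloride-bicarbonate exchange takes up salt without a net transfer of charge, and water follows. Slc9a3r1 (NHERF1) tethers apical transporters to the cytoskeleton through PDZ domains. On the basolateral side, Slc4a4 and Slc12a2 load bicarbonate and chloride into cells that secrete them.

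Matched reads of 4 libraries were available, 1 from each tissue in each of 2 protocols. All came from C57BL/6 mice aged 9 to 10 weeks, untreated as far as the labels say, whose tissue had been frozen in liquid nitrogen. Small intestine (jejunum, per the study's methods) and colon (distal colon) were each prepared as total tissue, that is with muscle, the study states that both tissues came from the same mice, and how many mice entered a library is not given in the sources used here. In the cDNA fragmented protocol, polyadenylated RNA was copied from an oligo-dT primer by SMART synthesis and the cDNA was then broken. The other libraries were made with a whole transcriptome kit, which breaks the RNA itself and keeps the strand, and are labelled ribosomal RNA-depleted, although the study's methods describe polyadenylated RNA for this kit. Their numbers of reads differ from those the study gives for its RNA fragmented libraries, so whether its methods describe these libraries in full is not known.

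With 1 library per tissue and protocol there was no replicate, so no p-value was calculated within a protocol, and the 95% intervals given below cover counting error only. Uniquely placed reads numbered 22484041 (small intestine) and 24798934 (colon) for cDNA fragmented libraries but only 2035386 and 3478387 for ribosomal RNA-depleted libraries. Small intestine markers (Fabp2, Lct, Sis, Alpi, Fabp6, Slc2a2) all passed the 3-fold rule described below towards small intestine in both protocols, and each colon marker (Car1, Atp12a, Aqp8, Hoxd13, Hoxb13, Scnn1g) had more reads per unit of depth in colon. Markers of other cells also differed. The summed colon level was 4.17 times (cDNA fragmented) and 10.1 times (ribosomal RNA-depleted) that of small intestine for 6 smooth muscle markers, 7.90 and 8.75 times for 4 adipocyte markers, and 0.134 and 0.218 times for 6 immune markers. The immune sums were carried by Cd74 (ratios 0.0784 and 0.188), while Lyz2 was higher in colon in both protocols (1.22 and 2.76) and Cd79a had 0.487 and 1.04. For 6 epithelial markers the median log2 ratio was -0.35 and -0.97, and the sums, 0.436 and 0.970 times, were carried by Krt20 in the first protocol and Krt8 (2.20) in the second, where the other 5 were lower in colon. The libraries labelled colon, cDNA fragmented, and small intestine, ribosomal RNA-depleted, stood apart through pancreatic acinar genes, with summed levels over 12 markers of 641 and 3458 RPKM against 1.78 and 12.9 RPKM in the other library of the same protocol; Amy2a5 had no read in any library. The part of these markers in the results below was not tested, and in total tissue fewer cells of a type and less RNA per cell cannot be told apart.

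Levels are given as RPKM, reads per 1000 bases of exon blocks and per 1000000 uniquely placed reads. This adjusts for the length of the blocks but not for uneven reads along them, which limits comparison between genes. Slc26a3, Slc26a6 and Slc9a3r1 held the highest levels of the 8 genes in the cDNA fragmented small intestine library, Slc9a3r1, Slc26a6 and Slc26a2 in the ribosomal RNA-depleted one, where Slc26a3 was the sixth, and Slc26a3 led in both colon libraries. All 8 genes had the same direction between tissues in both protocols, except that Slc12a2 by cDNA fragmentation turned with median-of-ratios factors and Slc4a4 in the ribosomal RNA-depleted libraries turned with the last 1000 bases only. Among the 12846 genes present in all 4 libraries, 68.5% had the same direction. The size of the ratio differed between protocols beyond counting error, with intervals apart, for 6 of the 8 genes and for 39% of those 12846.

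**Figure D1:**
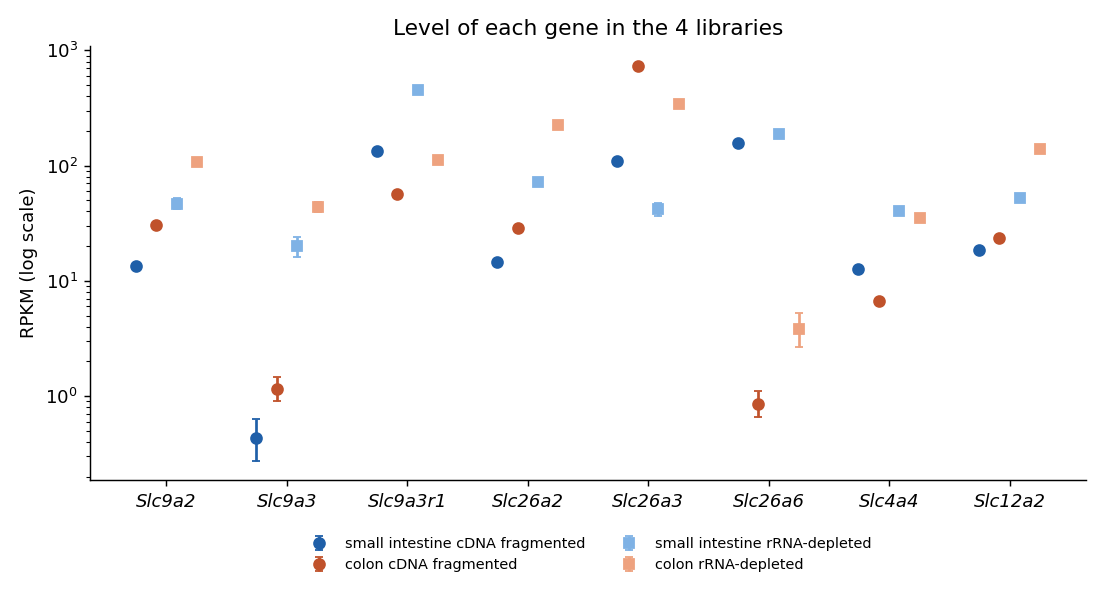
RPKM of the 8 genes (log scale) in the 4 libraries; circles are cDNA fragmented and squares ribosomal RNA-depleted, blue shades small intestine and orange shades colon, and bars are 95% counting intervals. Slc26a6 lies at 158 and 189 RPKM in small intestine against 0.858 and 3.80 RPKM in colon, and Slc26a3 has the opposite order.

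A gene passed the 3-fold rule, taken with its penalty of 1 from the study's methods for tissue comparisons, when its RPKM in a tissue was at least 3 times that in the other tissue plus 1 RPKM, among genes that had more than 0.01 RPKM and 2 or more start points in both. In the cDNA fragmented libraries 1 of the 8 genes passed towards colon (Slc26a3) and 1 towards small intestine (Slc26a6), where 3.25% and 2.82% of 15104 genes passed. In the ribosomal RNA-depleted libraries 2 passed towards colon (Slc26a2 and Slc26a3) and 2 towards small intestine (Slc9a3r1 and Slc26a6), where 6.41% and 3.86% of 13082 genes passed. Slc26a2, at 3.07 with the penalty, no longer passed with median-of-ratios or TMM factors, with start points, or with the last 1000 bases only. With a 2-fold minimum, Slc9a2 joined towards colon and Slc9a3r1 towards small intestine by cDNA fragmentation, 2 of the 8 for each tissue (8.47% and 4.74% of genes). In the ribosomal RNA-depleted libraries Slc9a2, Slc9a3 and Slc12a2 joined, so that 5 passed towards colon and 2 towards small intestine (15.9% and 7.43% of genes).

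A limma-voom fit over all 4 libraries, with the protocol as a block, tested the tissue effect in 13826 genes, and called 7.17% of them higher in colon and 6.82% higher in small intestine at a Benjamini-Hochberg adjusted p under 0.05. Of the 8 genes 3 were called, where 14.0% of all genes were: Slc26a3 towards colon and Slc9a3r1 and Slc26a6 towards small intestine. This fit has 1 residual degree of freedom per gene and borrows its spread from all genes, and its p-values measure only the spread between these libraries, which nothing in the labels ties to separate animals. The genes were chosen with results of these data known, so the counts are descriptions.

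**Figure D2:**
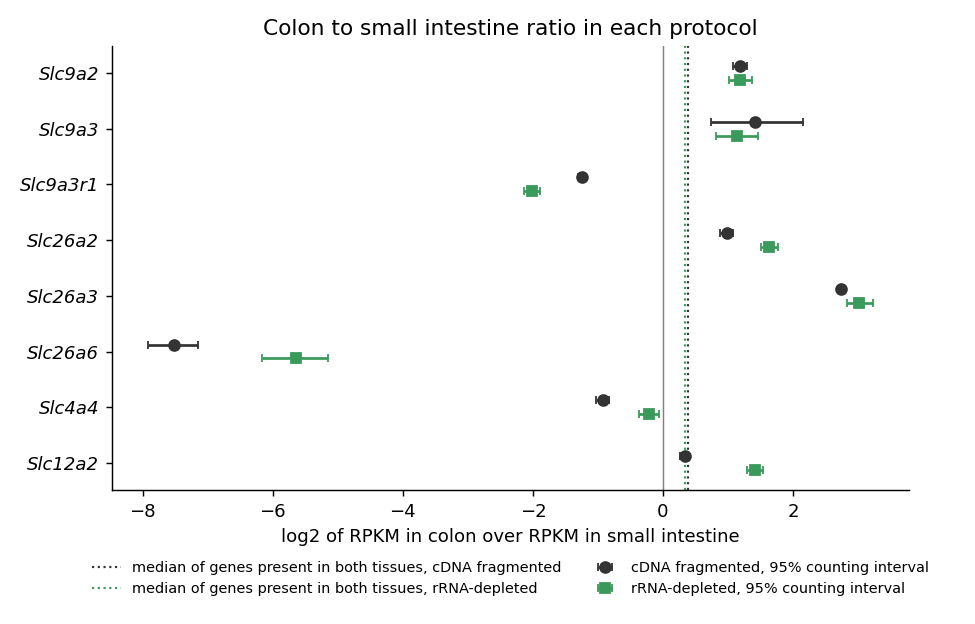
Log2 of the RPKM in colon over that in small intestine for each gene, with 95% counting intervals; circles are cDNA fragmented, squares ribosomal RNA-depleted, and dotted lines the median over genes present in both tissues (0.39 and 0.34). Slc26a3 lies farthest to the right and Slc26a6 farthest to the left in both protocols, and Slc12a2 lies near the median line in the cDNA fragmented protocol alone.

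Slc9a2 (chromosome 1, positions 40738557 to 40825730 of mm9, plus strand, 12 exon blocks) encodes the sodium-proton exchanger NHE2 of the apical membrane. Its level was 13.4 RPKM in small intestine and 30.4 RPKM in colon by cDNA fragmentation, and 46.7 RPKM and 107 RPKM in the ribosomal RNA-depleted libraries. Colon was the higher tissue in both protocols and by nearly the same factor, 2.27 (95% interval 2.11 to 2.44) and 2.29 (2.02 to 2.59). The block fit gave a log2 difference of 0.92 (SE 0.37) and a limma adjusted p of 0.103, which misses the threshold. Of its 12 blocks 11 had more reads per unit of depth in colon by cDNA fragmentation, as had all 7 blocks with at least 10 reads in each ribosomal RNA-depleted library.

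Slc9a3 (chromosome 13, 74258963 to 74303512, plus strand, 16 blocks) encodes NHE3, the main apical exchanger for sodium absorption in the intestine. Only 24 reads (0.429 RPKM) in small intestine and 71 reads (1.15 RPKM) in colon were found by cDNA fragmentation, against 101 reads (19.9 RPKM) and 379 reads (43.8 RPKM) in the shallower ribosomal RNA-depleted libraries. The colon to small intestine ratio was 2.68 (1.67 to 4.46) and 2.20 (1.76 to 2.76), so the tissue ratios overlapped while the levels lay far apart between protocols. The ribosomal RNA-depleted level was 46.5 times the cDNA fragmented level in small intestine and 38.1 times in colon. The median over genes with at least 50 ribosomal RNA-depleted reads and any cDNA fragmented read was 1.84 and 1.83, and 1.37% of 5781 and 1.01% of 8397 genes reached the factor of Slc9a3. By RPKM, the balance of both apical exchangers therefore depended on the protocol. Slc9a2 stood 31.2 times (20.8 to 48.9) and 26.4 times (20.9 to 33.9) above Slc9a3 by cDNA fragmentation in small intestine and colon, but 2.34 times (1.87 to 2.96) and 2.44 times (2.17 to 2.74) in the ribosomal RNA-depleted libraries. Within a protocol the intervals of this balance overlapped between tissues. The exon blocks of the genes differ at the 3′ end. Slc9a3 has 2490 exon bases with a last block of 254, and Slc9a2 has 3493 with a last block of 1260. By cDNA fragmentation the last block took 63.2% and 69.0% of the Slc9a2 reads, and 16.7% and 19.7% of the Slc9a3 reads. The part of these blocks in the balance was not tested. The block fit gave Slc9a3 a log2 difference of 0.94 (SE 0.49, limma adjusted p = 0.232).

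The scaffold gene Slc9a3r1 (chromosome 11, 115024655 to 115042492, plus strand, 6 blocks) went the other way from the exchanger it is named for. It had 133 RPKM in small intestine and 56.2 RPKM in colon by cDNA fragmentation, and 455 RPKM and 112 RPKM in the ribosomal RNA-depleted libraries. Small intestine was the higher tissue 2.37-fold (2.27 to 2.48) and 4.05-fold (3.72 to 4.41), intervals that do not overlap. Counted by start points, it was 1.57-fold and 3.21-fold higher. By cDNA fragmentation the last block, of 864 bases, held 5242 and 2447 reads, at 3.94 and 2.54 reads per start point. The length of a block limits its start points, so this count can fall short of the ratio in reads. In the block fit Slc9a3r1 fell by 1.89 on the log2 scale from small intestine to colon (SE 0.37, limma adjusted p = 4.03e-04). All 6 blocks were lower in colon by cDNA fragmentation, as were all 5 with at least 10 reads in each ribosomal RNA-depleted library. The reads rested on the 3′ end: the last block, with 864 of the 1922 exon bases, took 90.9% and 91.3% of reads by cDNA fragmentation and 71.9% and 72.7% in the ribosomal RNA-depleted libraries. The blocks of the 5′ portion alone, with 968 bases, gave colon to small intestine ratios of 0.383 (0.322 to 0.455) and 0.252 (0.212 to 0.300).

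The chloride-bicarbonate exchanger Slc26a3 (DRA, mutated in congenital chloride diarrhoea) had its highest level in colon. The gene lies on chromosome 12, 32123166 to 32158584, plus strand, in 21 blocks. Its level was 110 RPKM in small intestine and 730 RPKM in colon by cDNA fragmentation, and 41.9 RPKM and 339.9 RPKM in the ribosomal RNA-depleted libraries. The ratio was 6.66 (6.49 to 6.83) and 8.12 (7.09 to 9.34), and in the block fit Slc26a3 rose by 2.60 on the log2 scale in colon (SE 0.37, limma adjusted p = 4.93e-06). Each of the 21 blocks had more reads per unit of depth in colon by cDNA fragmentation, with ratios from 2.27 to 9.36, and so had all 11 blocks with at least 10 reads in each ribosomal RNA-depleted library, from 1.99 to 15.4.

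By cDNA fragmentation, the size of the Slc26a3 difference varied along the transcript. The 10 blocks of the 5′ portion gave 7.85 (7.59 to 8.13) by cDNA fragmentation and 9.75 (8.04 to 11.95) in the ribosomal RNA-depleted libraries, and the 11 blocks of the 3′ portion gave 5.15 (4.95 to 5.36) and 6.56 (5.42 to 8.01). The intervals of both portions are apart by cDNA fragmentation. In the ribosomal RNA-depleted libraries their bounds, 8.04 and 8.01, nearly touch. The intervals take each read as independent, which reads at the same start point may not be, so no difference between portions is shown there. In the colon cDNA fragmented library Slc26a3 had 13.2 reads per start point, against a median of 1.23 over genes with at least 100 reads. Its 47582 reads there exceed the 5256 start points possible on both strands, so part of this value follows from depth. Of the possible start points 2810 were in use in small intestine and 3607 in colon by cDNA fragmentation. Counted by start points, the cDNA fragmented ratio could therefore not have passed 1.79. It was 1.23, and the limma adjusted p of the block fit was 0.307, but this measure could not have shown the difference seen in reads. In the ribosomal RNA-depleted libraries, with 2 and 4.91 reads per start point, the start points gave a ratio of 3.30. Slc26a3 was also the gene of the 8 whose level was lower in the ribosomal RNA-depleted libraries than by cDNA fragmentation, at 0.382 times in small intestine and 0.466 times in colon. Of the genes compared in this way for Slc9a3 above, 90.4% of 5781 and 87.4% of 8397 had a factor at or above that of Slc26a3.

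**Figure D3:**
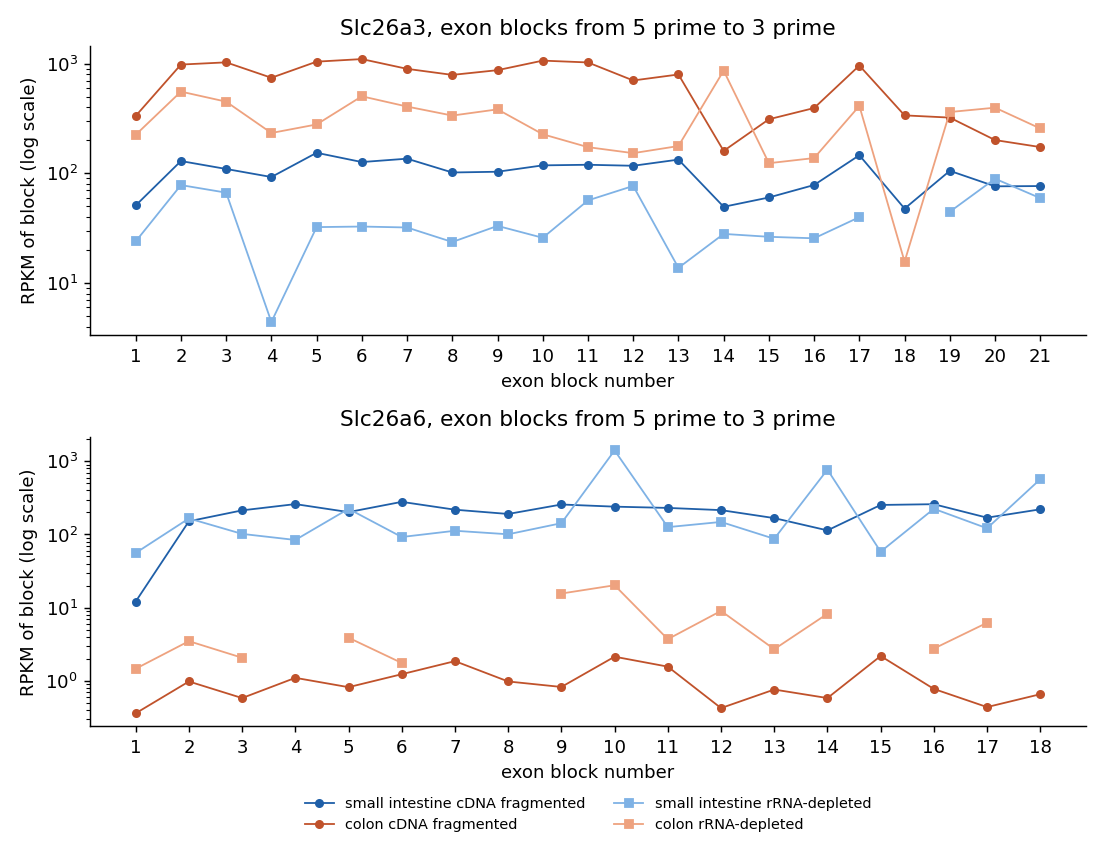
RPKM of each exon block (log scale) of Slc26a3 (top) and Slc26a6 (bottom), numbered from the 5′ end, in the 4 libraries; blocks without reads are left out. For Slc26a3 colon lies above small intestine in every block of the cDNA fragmented libraries, and for Slc26a6 small intestine lies above colon in every block with reads; single blocks of the ribosomal RNA-depleted libraries stand out, such as block 10 of Slc26a6 with 328 reads.

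Because Slc26a3 had the largest ratio towards colon of the 8 genes, its promoter is shown. In the RefSeq promoter windows (250 bases before to 50 after the start, build GRCm38.p6, not the mm9 build of the reads), it was the sole gene among the 5 with a window (Slc9a3, Slc9a3r1, Slc26a3, Slc26a6 and Slc4a4) that held the letters GTTAAT, the core of the motif of HNF1, on either strand, and the sole one that held TATAAA, the TATA box. GTTAAT is found in 7.1% of all 32851 promoter windows and TATAAA in 13.6%. The core of HNF4, CAAAGT (14.4% of windows), was found only in a window of Slc4a4, and neither AGATAA for GATA factors (11.2%) nor TTTATG for CDX factors (11.9%) was found in a window of any of the 5 genes. The stretches around the matches follow, on the plus strand, with the match in capitals. The first 2 stretches overlap and each match is also visible, in lower case, in the other.
Slc26a3, match 94 bases before the start, chr12:31438113-31438142: attgttgtaaaaGTTAATgaaagttaatta
Slc26a3, match 84 bases before the start, chr12:31438123-31438152: aagttaatgaaaGTTAATtattaaagttga
Slc26a3, match 30 bases before the start, chr12:31438177-31438206: ctacataacctaTATAAAgacatctataat
Slc4a4, match 176 bases before the start, chr5:88887072-88887101: cccacccggcgcCAAAGTtgcgaccgctgc
A match of 6 letters describes the sequence and does not show that a factor binds there.

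Slc26a6 (PAT1, chromosome 9, 108756374 to 108764474, plus strand, 18 blocks), which exchanges chloride for bicarbonate or oxalate at the apical membrane, had the opposite tissue order to Slc26a3 and the largest difference of the 8 genes. In small intestine it had 9656 reads (158 RPKM) by cDNA fragmentation and 1048 reads (189 RPKM) by the other protocol. In colon it had 58 reads (0.858 RPKM) and 36 reads (3.80 RPKM). Small intestine was thus 184-fold (142 to 242) and 49.7-fold (35.7 to 71.4) higher. Counted by start points, it was 52.1-fold and 20.8-fold higher. Start points are limited by the 2725 exon bases. By cDNA fragmentation they held 3.80 reads each in small intestine and 1.14 in colon, so this count can fall short of the ratio in reads. In the block fit Slc26a6 fell by 6.99 on the log2 scale from small intestine to colon (SE 0.50, limma adjusted p = 9.43e-12).

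The difference was as large in both portions of the Slc26a6 transcript, with colon to small intestine ratios of 0.00619 and 0.00514 by cDNA fragmentation and 0.0201 in each portion in the ribosomal RNA-depleted libraries. Small intestine reads of the ribosomal RNA-depleted protocol were uneven, with 31.3% of them in block 10. Slc26a6 is also expressed in pancreatic ducts. The cDNA fragmented small intestine library, in which the 12 acinar markers summed to 1.78 RPKM, held Slc26a6 at 158 RPKM, and the colon library of that protocol, where they summed to 641 RPKM, held it at 0.858 RPKM. In the ribosomal RNA-depleted protocol the acinar markers lay on the same side as Slc26a6. These markers belong to acinar cells and do not measure ducts, and the part of pancreatic RNA in the result was not tested.

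By reads, the 2 apical anion exchangers therefore changed places between the tissues. Slc26a6 stood above Slc26a3 in small intestine, 1.44 times (1.39 to 1.48) by cDNA fragmentation and 4.51 times (3.90 to 5.24) in the ribosomal RNA-depleted library. In the cDNA fragmented small intestine library this order did not hold by start points, of which Slc26a6 had 2539 on 2725 bases (3.80 reads each) and Slc26a3 had 2810 on 2628 bases (2.31 reads each). In colon Slc26a3 stood above Slc26a6 by 851 times (658 to 1120) and 89.5 times (64.5 to 128).

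Slc26a2 (chromosome 18, 61356508 to 61371250, minus strand, 4 blocks) exchanges sulfate for other anions and supplies sulfate for the sulfation of proteoglycans and mucins. It had 14.5 RPKM in small intestine and 28.5 RPKM in colon by cDNA fragmentation, and 71.9 RPKM and 224 RPKM in the ribosomal RNA-depleted libraries. Colon was the higher tissue 1.97-fold (1.84 to 2.11) and 3.11-fold (2.84 to 3.41), and these intervals do not overlap. Counted by start points, the ratios were 1.73 (1.61 to 1.86) and 1.91 (1.66 to 2.21), whose intervals overlap. The block fit gave 1.03 on the log2 scale (SE 0.37) with a limma adjusted p of 0.0591, just above the threshold. The single last block held 2805 of the 3863 exon bases and gave ratios of 2.02 and 3.08, and the 3 other blocks 1.72 and 3.23. Of the goblet cell markers measured, Tff3 had ratios of 1.30 and 1.18, Fcgbp 1.77 and 0.616, and Clca3 2.60 and 10.1, with a median log2 ratio of 0.82 and 0.24. Their part in the result was not tested.

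Slc4a4 (NBCe1, chromosome 5, 89316285 to 89668681, plus strand, 26 blocks) carries sodium with bicarbonate across the basolateral membrane. Its level was 12.7 RPKM in small intestine and 6.65 RPKM in colon by cDNA fragmentation, and 40.7 RPKM and 34.996 RPKM in the ribosomal RNA-depleted libraries. Small intestine was higher 1.90-fold (1.77 to 2.04) by cDNA fragmentation but only 1.16-fold (1.05 to 1.29) in the ribosomal RNA-depleted libraries. The block fit gave -0.85 on the log2 scale (SE 0.37, limma adjusted p = 0.137). With start points it was called (limma adjusted p = 0.0345, from 0.0345 to 1 over the alternatives), and with the last 1000 bases only, the ribosomal RNA-depleted ratio turned to 1.15 (0.801 to 1.66). Its last block of 4150 bases, which took 89.8% and 86.4% of the reads by cDNA fragmentation, gave a colon to small intestine ratio of 0.506 (0.469 to 0.546) there and 0.937 (0.818 to 1.08) in the ribosomal RNA-depleted libraries. The 25 blocks before it gave 0.699 (0.568 to 0.858) and 0.765 (0.653 to 0.899), so the protocols lay closer together outside the last block. Among blocks with at least 10 reads in each library, 5 of 6 were lower in colon by cDNA fragmentation and 7 of 12 in the ribosomal RNA-depleted libraries. Slc4a4 is strongly expressed in the pancreas, and the library with acinar markers was that of colon in the first protocol and that of small intestine in the second. The part of pancreatic RNA in the result was not tested.

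Slc12a2 (NKCC1, chromosome 18, 58038332 to 58106474, plus strand, 27 blocks) takes up sodium, potassium and chloride at the basolateral membrane of secreting cells. It had 18.5 RPKM in small intestine and 23.4 RPKM in colon by cDNA fragmentation, and 52.0 RPKM and 138 RPKM in the ribosomal RNA-depleted libraries. The ratio was 1.26 (1.201 to 1.33) and 2.66 (2.45 to 2.89), the latter 1.60 by start points. By cDNA fragmentation 10 of 16 blocks with at least 10 reads in each library were lower in colon, against the direction of the whole gene, while all 12 such blocks were higher in the ribosomal RNA-depleted libraries. Relative to the median of genes present in both tissues, which itself lay 0.39 (log2) towards colon by cDNA fragmentation and 0.34 in the ribosomal RNA-depleted libraries, the first of these, 0.34 on the log2 scale, lay on the side of small intestine. With median-of-ratios size factors it was -0.07, the sole change of direction under another scaling among the 8 genes. The 22 blocks of the 5′ portion gave 0.985 (0.840 to 1.16) by cDNA fragmentation and 3.13 (2.72 to 3.61) in the ribosomal RNA-depleted libraries. The block fit gave 0.60 (SE 0.37, limma adjusted p = 0.334). Slc12a2 is also made in smooth muscle and neurons, whose markers were higher in colon in sum (muscle as given above, neurons and glia 2.26 and 4.98 times). Their part in the result was not tested.

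The balance of the basolateral loaders differed between tissues in the same direction in both protocols, though neither gene was called in the block fit. Slc12a2 stood above Slc4a4 by 1.47 times (1.39 to 1.55) and 1.28 times (1.15 to 1.43) in small intestine, and by 3.52 times (3.30 to 3.76) and 3.95 times (3.67 to 4.26) in colon. The colon to small intestine ratios of Slc4a4 and Slc12a2 were 0.526 and 1.26 by cDNA fragmentation. In the ribosomal RNA-depleted libraries they were 0.861 and 2.66. The 5′ portions gave 0.699 and 0.985, then 0.765 and 3.13, so the size of the shift there depended on the protocol.

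The share of reads at the 3′ end of the transcripts was also compared between protocols. For Slc9a3r1 92.2% and 92.8% of cDNA fragmented reads fell in the last 1000 bases, against 75.5% in each ribosomal RNA-depleted library. Slc4a4 had 32.2% and 33.4% there by cDNA fragmentation and 7.74% and 10.3% in the ribosomal RNA-depleted libraries. In Slc26a3 and Slc26a6 the order was turned in both tissues, with for example 31.7% and 21.7% of Slc26a3 reads by cDNA fragmentation and 38.4% and 35.1% in the ribosomal RNA-depleted libraries. For Slc26a6 in colon the shares rest on 58 and 36 reads, and their Wilson intervals overlap (31.2% to 55.9% and 53.1% to 82.0%). In small intestine, block 10 of Slc26a6 lies within the last 1000 bases. It held 328 of the 1048 ribosomal RNA-depleted reads, at 16.4 reads per start point. The median over genes of at least 2000 bases and at least 100 reads was 40.9% and 43.6% by cDNA fragmentation, and 21.6% and 22.9% in the ribosomal RNA-depleted libraries. Slc9a3r1, with 1922 bases, is too short to be in this set. The share also depends on the length of the gene's blocks, which is 7492 bases for Slc4a4, so it does not compare the 3′ end between genes of unlike length.

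**Figure D4:**
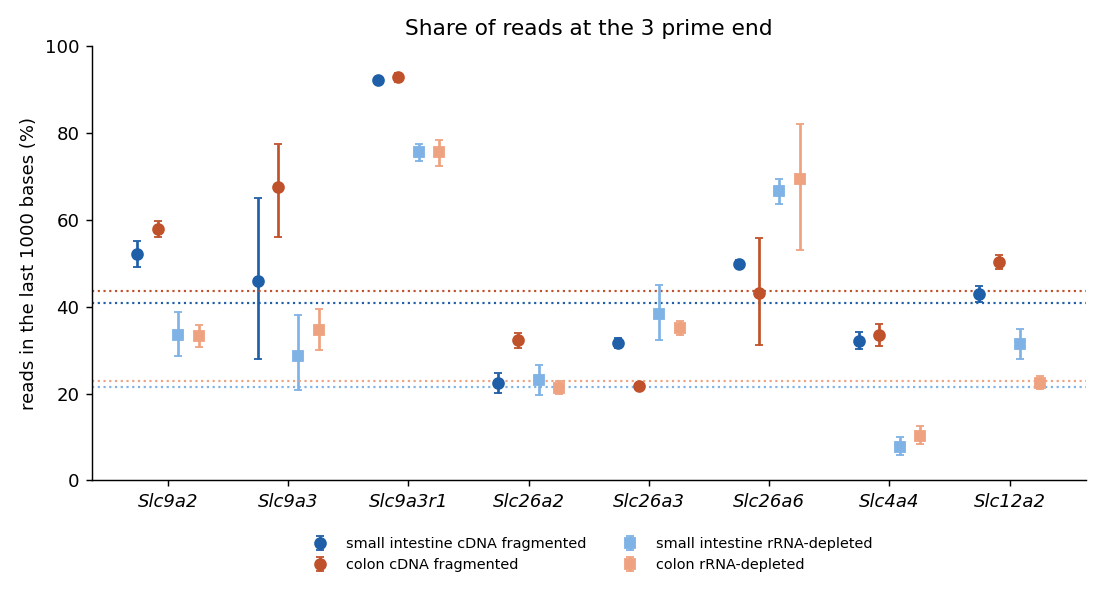
Percent of each gene's reads within the last 1000 bases of its exon blocks in the 4 libraries, with 95% Wilson intervals. Dotted lines are the medians over genes of at least 2000 bases and at least 100 reads in the library of the same color. Slc9a3r1 lies between 75.5% and 92.8%, and Slc4a4 at 7.74% and 10.3% in the ribosomal RNA-depleted libraries.

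By strand, all reads of 7 of the genes lay in the sense of the gene in the ribosomal RNA-depleted libraries. The exception was Slc26a6, with 13 antisense reads among 1048 in small intestine, a sense share of 98.8% (Wilson interval 97.9% to 99.3%). The cDNA fragmented protocol keeps no strand, and sense shares there ran from 46.4% to 57.7%.

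Among the other genes of the same families (Slc9, Slc26, Slc4 and Slc12) and their scaffolds and partners, 40 of 42 listed genes had exon blocks, and 30 and 27 were present in both tissues by cDNA fragmentation and in the ribosomal RNA-depleted libraries. The 3-fold rule was passed by 2 genes towards colon and 0 towards small intestine in the former, and by 1 and 4 in the latter (over all genes 3.25% and 2.82%, then 6.41% and 3.86%), and no gene passed in the same direction in both. This rests on the definition of the rule: Pdzk1 was not counted as present in the cDNA fragmented colon library, and Slc4a5, below 1 RPKM there in both tissues, had a log2 ratio of -5.71. Slc4a2 passed towards colon by cDNA fragmentation, at 4.04 with the penalty, and just missed in the ribosomal RNA-depleted libraries, at 2.99. The median log2 ratio of the listed genes present in both tissues was 0.54 and 0.28, beside 0.39 and 0.34 over all genes present. The block fit called 2 of 27 tested towards colon and 4 towards small intestine, where 7.17% and 6.82% of all genes were called. The genes named next were chosen after their values had been seen.

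Towards colon these were Slc4a2, a basolateral chloride-bicarbonate exchanger (log2 1.98, SE 0.43, limma adjusted p = 0.00139), and Slc12a8 (log2 1.28, SE 0.38, limma adjusted p = 0.0213), with ratios of 2.32 and 3.89. Slc4a2 had 1.15 and 8.69 RPKM by cDNA fragmentation and 24.8 and 77.2 RPKM in the ribosomal RNA-depleted libraries. Towards small intestine were the scaffold gene Pdzk1, Ezr (ezrin, which binds Slc9a3r1 to actin), Slc4a5 and Slc26a10. Pdzk1 had 8297 reads in small intestine and 2 in colon by cDNA fragmentation, and 292 and 3 in the ribosomal RNA-depleted libraries. Ezr had 75.4 and 31.6 RPKM and then 325 and 60.8 RPKM, that is 2.39-fold (2.27 to 2.50) and 5.35-fold (4.90 to 5.85) higher in small intestine, beside the 2.37-fold and 4.05-fold of its partner Slc9a3r1. Slc4a5, a sodium-bicarbonate cotransporter, had 95 and 2 reads and then 67 and 3 reads. Slc26a10 was 1.65-fold (1.47 to 1.84) and 4.49-fold (3.39 to 6.00) higher in small intestine. Of the 6 epithelial markers, Epcam, Vil1, Krt20 and Cldn7 were lower in colon in both protocols, Krt8 was higher in both and Cdh1 differed in direction. Their part in the result was not tested.

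**Figure D5:**
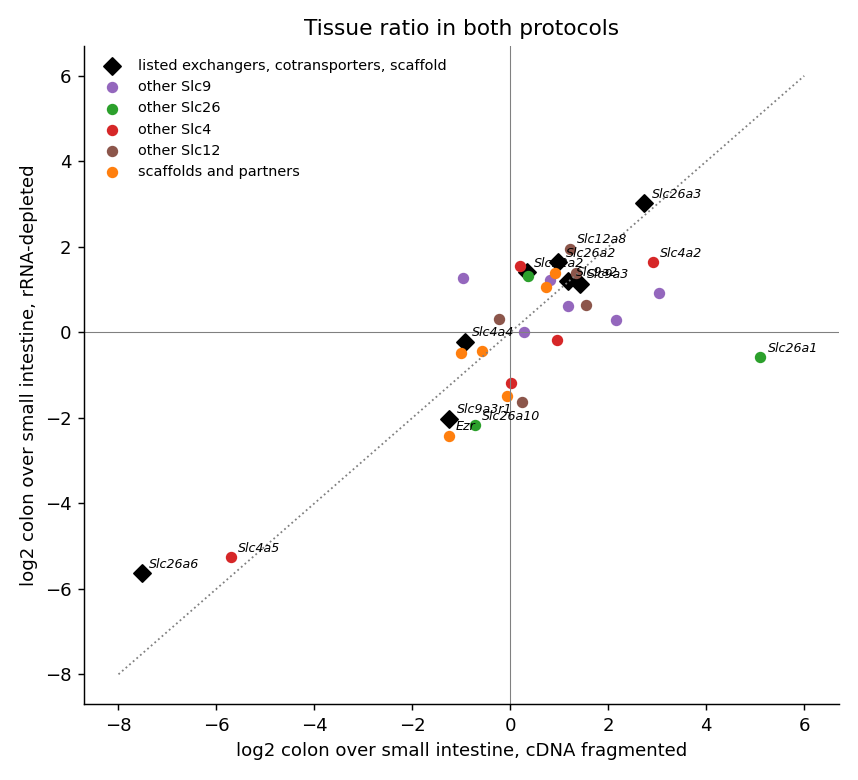
Log2 of RPKM in colon over small intestine by cDNA fragmentation (horizontal) and in the ribosomal RNA-depleted libraries (vertical) for genes present in all 4 libraries; black diamonds are the 8 genes, circles the other family genes and partners, and the dotted line marks equal values. All 8 diamonds lie in the lower left or upper right part of the plot, and Slc26a1, with 8 and 303 reads by cDNA fragmentation but 7 and 8 in the ribosomal RNA-depleted libraries, lies far from the line.

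Genes with the most similar levels were sought among 3228 genes with at least 100 reads in every library, by Euclidean distance of log2(RPKM + 1) over the 4 libraries. Nearest to Slc9a2 was the bile acid transporter Slc10a2 at a distance of 0.12, with 13.3, 29.04, 49.2 and 102 RPKM (small intestine then colon by cDNA fragmentation, then likewise in the ribosomal RNA-depleted libraries), followed by Cpt1a and Dio1. Nearest to Slc26a2 were Sdc1 (syndecan-1, a proteoglycan) at 0.37, Gfpt1 and Slc35a3. Slc4a4 had Bmpr1a at 0.22, Slc30a5 and Man1a, and Slc12a2 had Klf3 at 0.39 and Adipor1 among its nearest. Slc26a3 had Rnf186 at 0.93, Prss32 and Myl9, Slc9a3r1 had Abp1 at 0.91, Lypla1 and H2-Ab1, and Slc26a6 had Maf at 1.84, Cps1 and Alpi. For Slc9a3 the nearest were Fasn at 0.78, Tns3 and Smg5, which shared its low cDNA fragmented levels (0.631 and 2.25 RPKM for Fasn) and higher ribosomal RNA-depleted ones (23.8 and 33.0 RPKM). Slc26a6 in colon (58 and 36 reads) and Slc9a3 by cDNA fragmentation (24 and 71 reads) themselves fell below the minimum of 100 reads. Genes as low as these were left out of the search, so the distances of Slc26a6 and Slc9a3 rest in part on this minimum.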

How the data were processed

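SOLiD reads of 35 colors had been matched by the authors to RefSeq exons of mm9 and exon-exon junctions with up to 3 mismatches, and only uniquely placed reads were deposited. The deposited match files hold positions and strands of single reads, and no deposited column holds expression values (these units are classed as other). Reads were counted per exon block with a tolerance of 3 bases at borders. Numbers of reads equalled those in the authors' reports. Of the reads, 0.754% to 0.822% lay on junctions and 0.181% to 0.537% in blocks without a gene name. Gene names came from GENCODE M1.

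RPKM and the 3-fold rule are explained above. Ratios carry exact conditional binomial (Clopper-Pearson) intervals, levels exact Poisson intervals and shares Wilson intervals, all at 95%. Reads amplified by PCR are not independent molecules. A count model had been planned for the block fit but was not run, and no deposited column holds counts per gene. In its place limma-voom (version 3.58.1, R 4.3.3) was run on the reads counted here. It used genes with at least 10 reads in at least 2 libraries, TMM factors and Benjamini-Hochberg adjustment. On simulated data for this fit 200 of 200 genes changed 4-fold were recovered and 11 other genes called. The 3-fold rule recovered 150 and 174 of 200. The simulated tissue effect was the same in both protocols and was given only to genes with many reads. The real tissue effects often differed between protocols, so these recoveries show that the procedure runs but not how well it does on the real data. Alternatives were other size factors, start points, at most 1 mismatch, added junction reads, the last 1000 bases, a smaller penalty, a 2-fold minimum, no filter, no block, and log2(RPM + 1) with a trend, which was added after the data had been seen. Named were the 8 genes, list genes past the 3-fold rule in the same direction in both protocols (none), and the 3 nearest genes of each. Some genes that these rules name are not reported here. The genes and lists were chosen with earlier results of these data known. Promoter windows were not used for Slc9a2, Slc26a2 and Slc12a2. Python 3.11.15, scipy 1.17.1 and matplotlib 3.10.9 were used.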

Additional observations from a re-analysis of the deposited data

Results flagged for a closer look

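Some genes of the family lists had opposite tissue orders in the 2 protocols, with counting intervals on opposite sides of 1. The difference between protocols was not tested, since each group holds 1 library. The values below are the log2 ratio of colon to small intestine in the ribosomal RNA-depleted libraries minus that in the cDNA fragmented ones.

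For Slc9a9, an endosomal sodium-proton exchanger, the value was 2.23, from ratios of 0.513 (0.344 to 0.755) by cDNA fragmentation and 2.40 (1.18 to 5.37) in the ribosomal RNA-depleted libraries, the latter on 10 and 41 reads. For the sodium-bicarbonate cotransporter Slc4a7 it was -1.14, from 1.95 (1.82 to 2.09) and 0.882 (0.800 to 0.972). The potassium-chloride cotransporter Slc12a7 had -1.88, from 1.19 (1.11 to 1.27) and 0.322 (0.263 to 0.394). None of the 8 genes was among them.

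The summed RPKM of the 12 pancreatic acinar markers gave -16.6, the difference between a ratio of 360 and a ratio of 0.00372. The most abundant were Cela2a with 271 RPKM in the cDNA fragmented colon library and Ctrb1 with 883 RPKM in small intestine of the ribosomal RNA-depleted protocol. Most of these genes had 0 or few reads in the other library of the same protocol.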

How the results depend on the processing

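Of 96 values of the 8 genes within a protocol under other settings, 2 changed direction: Slc12a2 by cDNA fragmentation was -0.066 (log2) with median-of-ratios size factors, and Slc4a4 in the ribosomal RNA-depleted libraries was 0.20 with the last 1000 bases only. Of the others 50 stayed within counting error and 44 moved beyond it. Of the 50, 16 came from added junction reads, which at 0.754% to 0.822% of reads could hardly have moved a ratio. Median-of-ratios factors shifted all log2 ratios by -0.40 (cDNA fragmented) and -0.34 (ribosomal RNA-depleted), TMM factors by -0.22 and -0.32. The ratio of Slc26a6 in favour of small intestine ran from 52.1 to 243 by cDNA fragmentation and from 20.8 to 63.1 in the ribosomal RNA-depleted libraries, and that of Slc26a3 in favour of colon from 1.23 to 6.62 and from 3.30 to 8.47.

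The 3-fold rule counts by cDNA fragmentation were moved as follows. With median-of-ratios factors 2 of the 8 genes passed towards small intestine, and 1 of the family list genes towards each tissue. With start points 0 of the 8 passed towards colon, since Slc26a3 could not reach a ratio above 1.79 by start points there. With a 2-fold minimum 2 of the 8 passed towards each tissue (background 8.47% and 4.74%), and with a penalty of 0.1 RPKM 1 family list gene passed towards small intestine and 3 in place of 2 towards colon. In the ribosomal RNA-depleted libraries, 1 of the 8 passed towards colon in place of 2, Slc26a2 being lost, with median-of-ratios factors, TMM factors, start points or the last 1000 bases, and 5 with a 2-fold minimum (background 15.9%). Of the family list genes 0 passed towards colon with median-of-ratios factors and 2 with a penalty of 0.1 RPKM, and towards small intestine 6 and 5 in place of 4. The cause was not tested.

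In the block fit, start points left 0 of the 8 genes called towards colon (Slc26a3 log2 0.49, adjusted p = 0.307 by limma, with the same limit) and called Slc4a4 towards small intestine (-0.86, adjusted p = 0.0345 by limma). Over all alternatives the limma adjusted p ran from 1.28e-06 to 1 for Slc26a3 and from 0.0345 to 1 for Slc4a4. Without the filter, 17412 genes were tested, 610 genes were called towards colon, and 1 family list gene. Without the block, 0 genes were called by limma in either direction (726 at an unadjusted p under 0.05), hence 0 of the 8 and 0 of the family list genes, with Slc9a3r1, Slc26a3 and Slc26a6 losing their calls. With log2(RPM + 1) and a trend or with median-of-ratios factors no call of the 8 genes changed. Leaving out 1 library leaves no residual degree of freedom, so the value without it is the ratio of the other protocol. A further count model was not run. Counting intervals are widest for Slc9a3 by cDNA fragmentation (24 and 71 reads) and for Slc26a6 in colon (58 and 36 reads).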
